A study of Mus musculus with 14 samples.

Results

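The leukocyte adhesion molecules described here are 9 genes, Sele, Selp, Icam1, Icam2, Vcam1, Mcam, Aoc3, Cd44 and Cd47, chosen by name as molecules through which vessel walls hold or signal to leukocytes. They are 9 of the 54524 genes counted, and all 9 were among the 26626 genes with enough counts to be tested. Their RNA was measured by bulk RNA sequencing of liver sinusoidal endothelial cells (LSECs), the fenestrated cells that line the capillaries of the liver. The cells were sorted from livers of male Balb/c mice aged 10 to 12 weeks by the labels, without culture, as viable CD32-positive cells negative for F4/80 and for UV autofluorescence. The study's methods give another age range. By those methods the sort also removed CD45-positive cells.

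The 14 samples fall into 4 groups, with 4 healthy samples, 2 samples taken 1 day after carbon tetrachloride (CCl4), 4 taken after 3 days and 4 taken after 7 days. CCl4 is a toxin that kills hepatocytes around the central veins, and it was given once, intraperitoneally, in mineral oil at 0.5 µL per g of body weight. Healthy mice received no injection, so the oil and the toxin cannot be told apart. Day 1 is the smallest group because samples with degraded RNA were left out before sequencing, and nothing states whether a sample came from 1 mouse or from several, so the p-values measure the spread between these samples.

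Leukocytes leave the blood in steps. Selectins on the vessel wall (Sele, E-selectin, and Selp, P-selectin) catch them by sugar chains, and members of the immunoglobulin superfamily (Icam1, Icam2 and Vcam1) then hold them by integrins. In the sinusoids, where blood flows slowly through narrow channels, leukocytes are known to stop with little rolling, and the binding of CD44 to hyaluronan takes part in holding neutrophils. Mcam (CD146) is a junctional adhesion molecule of endothelium and mural cells, Aoc3 (VAP-1) is an amine oxidase that supports leukocyte binding, and Cd47 is the ligand of the inhibitory receptor SIRPα on phagocytes.

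On GRCm38, Sele spans chr1:164048234-164057677 and Selp chr1:164115264-164150026, both on the plus strand. Icam1 (chr9:21015985-21028817, plus strand) is followed after 555 bases by Icam4 and after a further 1477 bases by Icam5. The other members are Mcam (chr9:44134469-44142727, plus), Icam2 (chr11:106377656-106388075, minus), Vcam1 (chr3:116109949-116129688, minus), Aoc3 (chr11:101330605-101341938, plus), Cd44 (chr2:102811141-102901665, minus) and Cd47 (chr16:49800533-49915010, plus).

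Promoter windows from RefSeq (GRCm38.p6), from 250 bases before to 50 bases after a start listed there, were at hand for 6 of the 9 members, not for Icam2, Vcam1 and Aoc3. That start can differ from the gene start given above. The Cd47 windows (chr16:49855404-49855703 and chr16:49855411-49855710) lie inside the gene. All these windows were searched on both strands for an NF-kB site (by its consensus), an AP-1 site (TGANTCA, which reads the same on both strands) and the core of the interferon-stimulated response element (by its consensus). Among the windows of these 6 members, AP-1 matches were found in Sele and Selp, and the other motifs matched in none. The windows of Sele (chr1:164047984-164048283, plus strand) and Selp (chr1:164115014-164115313, plus strand) are shown because they belong to the members with the largest changes and hold the matches, in capitals.
Sele promoter: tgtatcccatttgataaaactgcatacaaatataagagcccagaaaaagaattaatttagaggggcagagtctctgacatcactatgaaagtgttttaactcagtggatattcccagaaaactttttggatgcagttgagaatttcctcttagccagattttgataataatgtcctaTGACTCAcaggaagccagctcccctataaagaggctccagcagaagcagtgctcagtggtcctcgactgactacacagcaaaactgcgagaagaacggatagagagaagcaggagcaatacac
Selp promoter: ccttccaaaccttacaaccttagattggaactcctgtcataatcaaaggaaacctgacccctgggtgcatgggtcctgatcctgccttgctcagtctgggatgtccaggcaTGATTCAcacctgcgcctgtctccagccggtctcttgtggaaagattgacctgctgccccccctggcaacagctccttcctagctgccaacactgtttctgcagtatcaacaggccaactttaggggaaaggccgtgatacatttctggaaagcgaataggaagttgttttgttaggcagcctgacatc
The capitals mark AP-1 letters, 73 bases upstream of the Sele start and 139 bases upstream of the Selp start. Of all 32851 promoter windows, 7.81% hold such a match, 4.51% an NF-kB match and 3.44% a match to the interferon element. A match describes letters and not a bound site, and sites that depart from the consensus are missed, so the lack of a match does not show that a site is absent.

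Sequencing was deep, with 46401496 to 103912264 counts per sample, so that each member other than Aoc3 had at least 1264 counts in every sample. The 12 defining LSEC genes were detected in every group, at a summed 22415 to 26923 CPM (counts scaled to the library's size) in healthy and 12633 to 19038 CPM in injured samples. Some libraries stand apart. All 12 genes of a neutrophil and monocyte list were detected in both day 1 samples, at summed levels of 7086 and 3081 CPM, and in day 3 replicates 1 and 2, at 5409.6 and 2789 CPM, against 182 and 125 CPM in day 3 replicates 3 and 4 and 49.0 to 262 CPM in healthy samples. The leading genes of that list, S100a9 and S100a8, reached 3692 and 2140 CPM in day 1 replicate 1. Fcgr2b, which encodes the CD32b used for the sort, averaged 2839.7 ± 419 CPM (SD, n = 4) in healthy samples and fell at day 3 (log2 fold change -0.85 ± 0.20 SE, adjusted p = 0.024). Ptprc, which encodes CD45, was present at 36.9 to 109.6 CPM in healthy and 46.7 to 269.6 CPM in injured samples, and Adgre1, which encodes F4/80, at 10.2 to 58.9 and 27.8 to 159 CPM. The hepatocyte list (10 genes) summed to 206 to 9014 CPM in healthy samples, with the highest value in replicate 4, and to 33.3 to 6548 CPM after injury. In bulk samples, fewer cells of a type and less RNA per cell cannot be told apart.

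At day 1, Selp, Cd44, Sele and Mcam were higher than in healthy LSECs, and no member was lower. Of all genes tested, 4.06% passed the same test (2.42% higher and 1.64% lower). At day 3, Sele, Selp, Cd44, Vcam1 and Icam1 were higher and none was lower, where 7.19% of all genes passed (4.62% higher and 2.58% lower). By day 7 Cd44 and Sele were still higher, where 3.18% of all genes passed (2.19% higher and 0.992% lower). The median log2 fold change of all genes tested was -0.03 at day 1, 0.18 at day 3 and 0.02 at day 7. Taken relative to that median, the day 3 changes of Sele, Selp, Cd44, Vcam1 and Icam1 were 2.97, 2.21, 2.00, 1.07 and 1.00.

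**Figure D1:**
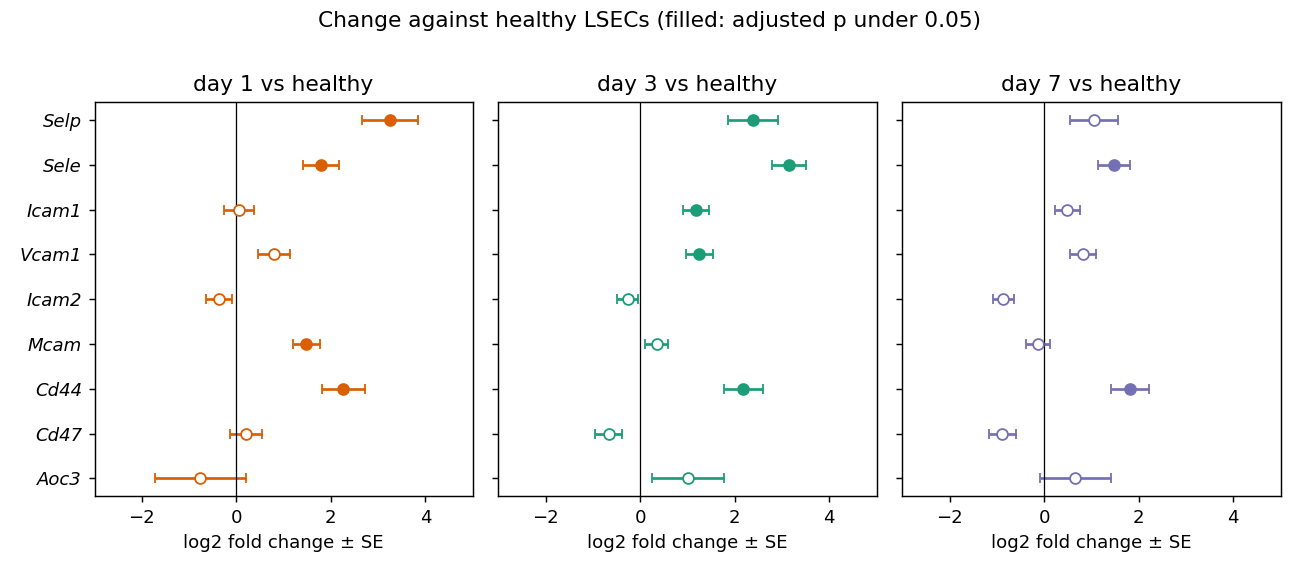
Log2 fold change with its standard error for each member at day 1, day 3 and day 7 against healthy LSECs, from the model of all 14 samples; filled symbols passed an adjusted p of 0.05. Selp leads at day 1 (3.25), Sele at day 3 (3.15) and Cd44 at day 7 (1.81).

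E-selectin is made by activated endothelium and binds sialylated sugar chains on neutrophils, monocytes and memory T cells. Sele read 13.3, 26.4, 13.1 and 19.1 CPM in the healthy samples, 45.0 and 79.6 CPM at day 1, 138, 237, 145 and 119 CPM at day 3, and 67.5, 35.4, 31.7 and 65.9 CPM at day 7. On the CPM scale every injured sample lay above every healthy sample, and every day 3 sample above every sample of the other groups. Per length, in TPM (counts divided by exon length and rescaled to a fixed sum), the day 7 samples, from 14.2 TPM, overlapped the healthy ones, which reached 19.7 TPM. Sele rose at day 1 by a log2 fold change of 1.79 ± 0.39 (SE, adjusted p = 0.0193), at day 3 by 3.15 ± 0.36 (adjusted p = 0.00081), an 8.88-fold difference, and at day 7 by 1.48 ± 0.34 (adjusted p = 0.0337). From day 3 to day 7 it fell by 1.67 on the log2 scale (SE 0.34, adjusted p = 0.0289), where 1.77% of all genes passed in that comparison. Day 3 against day 1 gave 1.36 ± 0.43 with groups that did not overlap (adjusted p = 0.128).

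The day 3 rise of Sele held in all 9 alternative analyses and in all 14 that left out 1 sample. It was 2.84 (adjusted p = 0.00269) without day 3 replicates 1 and 2, the libraries with the high neutrophil and monocyte sum, and in replicates 3 and 4, where that sum was in the healthy range, Sele was at 145 and 119 CPM. The part of those cells in the Sele result was not tested. The calls of Sele at the other times were less firm. At day 1 the adjusted p was 0.0579 and 0.0562 without healthy replicate 1 or 3, and 0.0709 and 0.253 without day 1 replicate 1 or 2. At day 7 it was 0.108 and 0.104 without healthy replicate 1 or 3, and 0.0547 and 0.0851 without day 7 replicate 2 or 4. The fall from day 3 to day 7 kept its direction without any 1 sample (-1.71 to -1.36) but passed in 4 of the 14 fits, and its adjusted p reached 0.157 without day 7 replicate 3.

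P-selectin is stored in the Weibel-Palade bodies of endothelium and in the granules of platelets, and is moved to the surface within minutes of activation. Selp read 16.6, 27.4, 16.5 and 21.0 CPM in healthy samples, 186 and 203 CPM at day 1, 119, 228, 55.7 and 23.4 CPM at day 3, and 34.3, 31.9, 38.7 and 65.0 CPM at day 7. Both day 1 samples lay far above all healthy samples, the day 3 samples ran from within the healthy range to above day 1, and the day 7 samples lay above healthy by a narrow margin, where in TPM they overlapped (from 10.4 TPM, against up to 13.5 TPM in healthy samples). Selp rose at day 1 by 3.25 ± 0.60 on the log2 scale (adjusted p = 0.00798), a 9.55-fold difference, and at day 3 by 2.39 ± 0.53 (adjusted p = 0.0167). Day 7 gave 1.06 ± 0.51 against healthy (adjusted p = 0.249), and Selp was 4.58-fold lower at day 7 than at day 1 (log2 fold change -2.19 ± 0.59, adjusted p = 0.038), where 8.04% of all genes passed.

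Selp moved with markers of other cells. The platelet and megakaryocyte list, with all 10 genes detected at day 1, summed to 625 and 548 CPM there, to 206, 193, 128 and 98.1 CPM in day 3 replicates 1 to 4, and to 32.2 to 54.5 CPM in healthy samples, and none of its genes was at 0 throughout any group. Its leading genes Itgb3 and Pf4 were at 339 and 255 CPM in day 1 replicate 1 and at 445 and 84.0 CPM in replicate 2. Itgb3, which is also an endothelial integrin, thus made up most of both day 1 sums. Itga2b of the same list was at 8.54 and 12.1 CPM at day 1, against 3.26 to 4.19 CPM in healthy samples. The list of larger-vessel endothelium (12 genes) summed to 1026 to 1094 CPM in healthy samples, against 1599 and 2225 CPM at day 1 and 1952, 1433, 1046 and 1023 CPM at day 3. Within it Rspo3, a gene of central vein endothelium, was at 135 and 179.7 CPM at day 1, at 217, 269.8, 42.7 and 24.3 CPM at day 3 and at 29.2 to 34.9 CPM in healthy samples. Plvap, the list's most abundant gene, was at 530 and 855 CPM at day 1 and 629 to 758 CPM in healthy samples. In day 3 replicates 1 to 4 it was at 584, 557, 532 and 667 CPM. Ly6a was at 642 and 906 CPM at day 1, 534, 131, 205 and 29.1 CPM at day 3 and 79.4 to 167 CPM in healthy samples. The order of Selp over the day 3 samples (replicate 2, 1, 3 and 4) is that of Rspo3 but not that of Plvap or Ly6a. The part of these cells in the Selp result was not tested. Without day 3 replicates 1 and 2 the day 3 change of Selp was 0.92 (adjusted p = 0.123) and that from day 1 to day 3 became -2.30 (adjusted p = 0.0127), against -0.87 (adjusted p = 0.524) with all samples. The day 3 call was also lost without healthy replicate 1 or 3 (adjusted p = 0.0573 and 0.0538) and in a fit of those groups alone (0.0643), and the day 1 call without day 1 replicate 1 (log2 fold change 3.28, adjusted p = 0.0543). The day 7 to day 1 difference was lost without healthy replicate 3 (0.0512), either day 1 sample (0.213 and 0.181) or day 7 replicate 1, 2 or 3 (0.0688, 0.094 and 0.0871), and stayed between -2.43 and -2.07.

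The rank of the selectins differed between groups. Per length, in TPM, the ratio of Selp to Sele was 0.685 to 0.829 in healthy samples, 2.73 and 1.68 at day 1, 0.130 to 0.636 in day 3 samples and 0.335 to 0.806 in day 7 samples. With all exons as the length, Selp exceeded Sele in the day 1 samples and in no other. With the longest transcript as the length it also did so in healthy replicate 1 (8.69 against 8.26 TPM), healthy replicate 3 (8.83 against 8.30 TPM) and day 7 replicate 3 (13.23 against 12.79 TPM). These ratios are given as a description without a test.

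**Figure D2:**
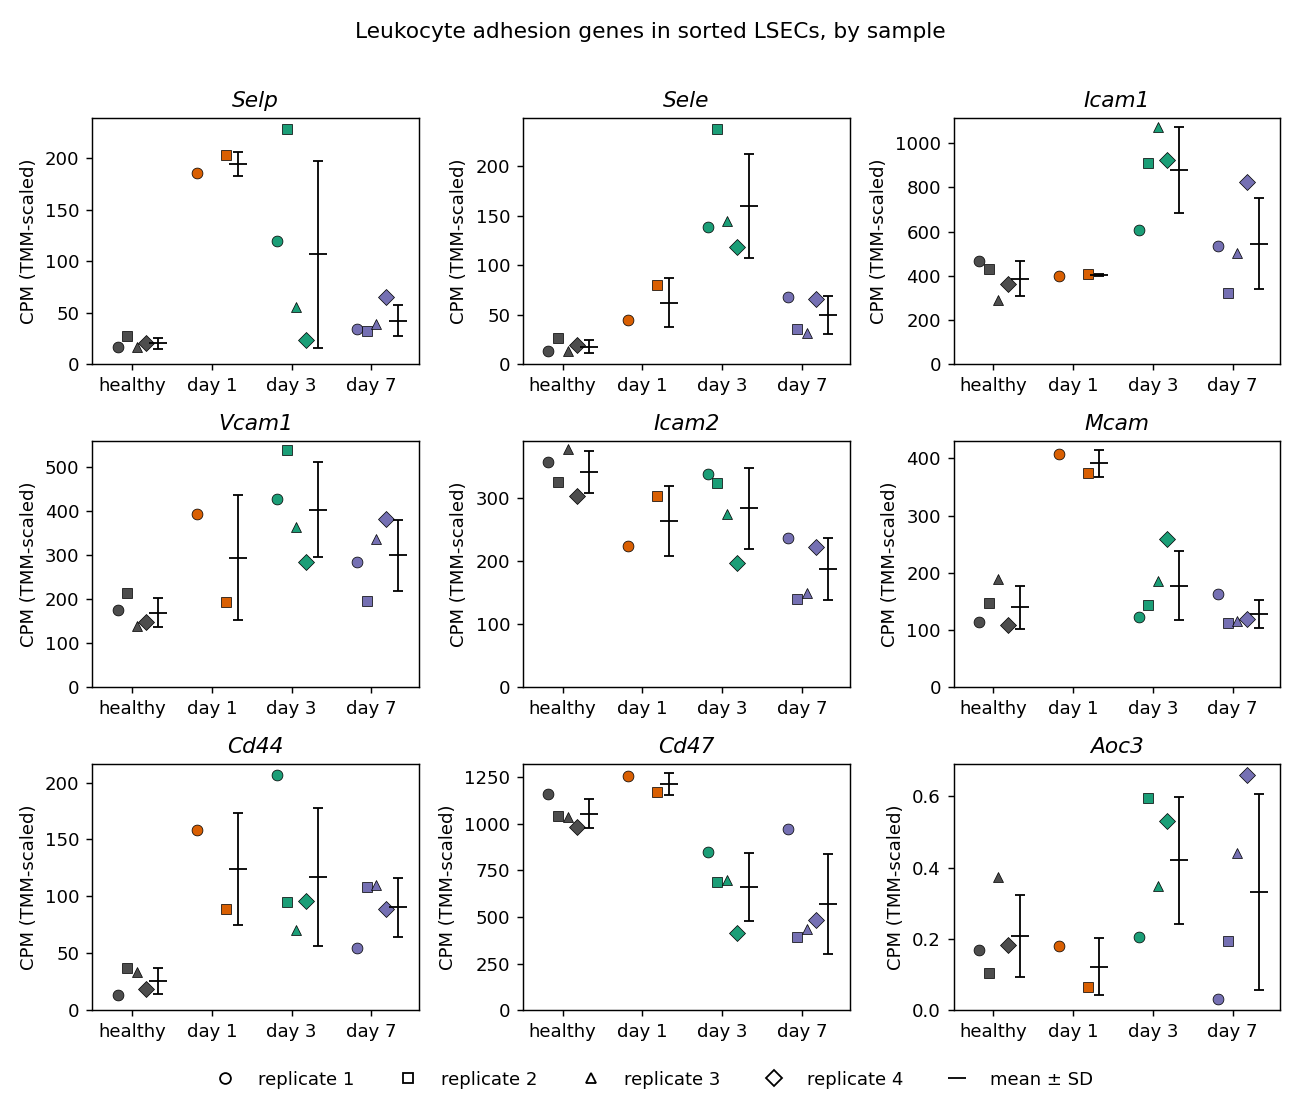
TMM-scaled CPM of each member in every sample, by group (symbol shape: replicate number; bar: mean ± SD, n = 4, 2, 4 and 4). Sele peaks in the day 3 samples (119 to 237 CPM), Selp is at 186 and 203 CPM at day 1 and spread from 23.4 to 228 CPM at day 3, and the day 7 samples of Cd47 split into 1 at 969 and 3 at 392 to 481 CPM.

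ICAM-1 binds the leukocyte integrins LFA-1 and Mac-1 and is present on resting LSECs. Icam1 read 465, 432, 292 and 362 CPM in healthy samples, 401 and 408 CPM at day 1, 609, 909.7, 1073 and 924 CPM at day 3, and 533, 322, 504 and 822 CPM at day 7. Day 1 lay inside the healthy range, all day 3 samples lay above it, and day 7 spread from inside to above it. Icam1 rose at day 3 by 1.18 ± 0.27 on the log2 scale (adjusted p = 0.0191), a 2.27-fold difference, while day 1 gave 0.06 ± 0.32 (adjusted p = 0.97) and day 7 gave 0.49 ± 0.27 (adjusted p = 0.304). Without day 3 replicates 1 and 2 the day 3 change was 1.34 (adjusted p = 0.0186). It missed the threshold without healthy replicate 3 or 4 (adjusted p = 0.0622 and 0.0737) or day 3 replicate 3 (0.0731). On the TPM scale, which also divides by the summed per-length rates of all genes, the day 3 samples read 182, 229.7, 493 and 529 TPM against 149.8 to 235 TPM in healthy samples, so that replicates 1 and 2 lay in the healthy range there.

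ICAM-2, the constitutive ligand of LFA-1 on endothelium, had no day above healthy in its mean. Icam2 read 358, 326, 379 and 303 CPM in healthy samples, 224 and 304 CPM at day 1, 339, 324, 276 and 197 CPM at day 3, and 237, 140.3, 149.9 and 224 CPM at day 7. On the CPM scale the day 7 group lay wholly below the healthy samples and the other days overlapped them. In TPM all 3 injured groups lay below the healthy samples (371.8 to 444.5 TPM), at 217.6 and 322.8 TPM on day 1, 187.6 to 290.0 TPM on day 3 and 102.7 to 337.9 TPM on day 7. The day 7 difference was -0.86 ± 0.22 on the log2 scale and just missed the threshold (adjusted p = 0.0514), with -0.37 ± 0.27 at day 1 (adjusted p = 0.55) and -0.27 ± 0.22 at day 3 (adjusted p = 0.53). It passed in 5 of the 9 alternative analyses, among them DESeq2 (-0.82, adjusted p = 0.00752) and limma (-0.93, adjusted p = 0.002), and in 2 of the 14 that left out 1 sample, day 3 replicate 4 (0.0235) and day 7 replicate 1 (0.0199). DESeq2 and limma also called more of all genes at day 7, 2721 and 7047 of 26626 against 846 in edgeR. Within each sample the per-length ratio of Icam1 to Icam2, which does not depend on scaling between samples, was 0.337 to 0.579 in healthy samples, 0.587 and 0.779 at day 1, 0.785 to 2.04 in day 3 samples and 0.982 to 1.61 in day 7 samples. All 10 injured samples lay above all 4 healthy samples in this ratio, which was not tested.

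VCAM-1 binds the integrin VLA-4 of monocytes and lymphocytes and is induced on activated endothelium. Vcam1 read 175, 213, 139.8 and 149 CPM in healthy samples, 395 and 194 CPM at day 1, 427, 539, 363 and 285 CPM at day 3, and 285, 195, 336 and 383 CPM at day 7. All day 3 samples lay above all healthy samples, while day 1 and day 7 each had 1 sample inside the healthy range. Vcam1 rose at day 3 by 1.25 ± 0.28 on the log2 scale (adjusted p = 0.0177), a 2.38-fold difference, with 0.80 ± 0.33 at day 1 (adjusted p = 0.218) and 0.82 ± 0.28 at day 7 (adjusted p = 0.115). The day 3 value was 0.91 (adjusted p = 0.0794) without day 3 replicates 1 and 2, and it missed the threshold without healthy replicate 3 or 4 (0.058 and 0.0613). The macrophage list, with all 12 genes detected in each group, summed to 391 to 2334 CPM in healthy samples and to 2883 and 1385 CPM at day 1. It summed to 2696, 2412, 1030 and 1013 CPM in day 3 replicates 1 to 4 and to 1144 to 2345 CPM at day 7. The part of macrophages in the Vcam1 result was not tested. At day 7 Vcam1 passed with DESeq2 (0.86, adjusted p = 0.0348), limma (0.81, adjusted p = 0.0295) and in a fit of those groups alone (0.82, adjusted p = 0.039). These 3 fits called 2721, 7047 and 3156 of all genes there, against 846 in edgeR with all samples. The per-length ratio of Vcam1 to Icam2 averaged 0.108 ± 0.0252 (SD, n = 4) in healthy samples, was 0.377 and 0.137 at day 1, the second within the healthy range of 0.0793 to 0.141, and averaged 0.305 ± 0.0380 at day 3 and 0.351 ± 0.0976 at day 7 (n = 4 each), without overlap with healthy on these days.

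MCAM was called against healthy at day 1 and at no later day. Mcam read 114, 147, 189 and 109.5 CPM in healthy samples, 407 and 375 CPM at day 1, 122, 143, 186 and 259.6 CPM at day 3, and 164, 112, 116 and 119 CPM at day 7. The day 1 samples lay above every other sample, and the day 3 and day 7 groups overlapped the healthy one. Mcam rose at day 1 by 1.48 ± 0.29 on the log2 scale (adjusted p = 0.0115), a 2.80-fold difference, and was 3.06-fold lower at day 7 than at day 1 (-1.61 ± 0.29, adjusted p = 0.00615). Day 3 against day 1 gave -1.14 ± 0.29 (adjusted p = 0.0608) with groups that did not overlap, and passed with DESeq2 (-1.12, adjusted p = 0.0151), limma (-1.47, adjusted p = 0.00142), the stricter count filter (-1.12, adjusted p = 0.0468) and without day 3 replicate 4 (-1.44, adjusted p = 0.0196). No member passed in that comparison in edgeR with all samples, where 2.54% of all genes did, and Icam1, Mcam, Sele and Cd47 had an unadjusted p under 0.05. The day 1 rise was lost without healthy replicate 4 (0.06) or either day 1 sample (0.249 and 0.0934), and the fall to day 7 without either day 1 sample (0.146 and 0.0756). The smooth muscle and pericyte list, whose cells also carry MCAM, had all 9 genes detected at day 1 and summed there to 29.1 and 22.5 CPM, against 20.2 to 25.7 CPM in healthy samples. The larger-vessel endothelium list, whose cells carry MCAM too, was at 1599 and 2225 CPM at day 1 against 1026 to 1094 CPM in healthy samples. The part of the cells of either list in the Mcam result was not tested.

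CD44 binds hyaluronan and is carried by leukocytes, stellate cells and activated endothelium alike. Cd44 read 13.2, 37.2, 33.4 and 19.2 CPM in healthy samples, 159 and 89.2 CPM at day 1, 206, 94.8, 70.9 and 96.2 CPM at day 3, and 54.7, 108, 110.2 and 89.0 CPM at day 7. No injured sample overlapped the healthy range at any time, and the 3 injured groups overlapped each other. Cd44 rose by 2.27 ± 0.46 on the log2 scale at day 1 (adjusted p = 0.013), by 2.18 ± 0.41 at day 3 (adjusted p = 0.00763) and by 1.81 ± 0.40 at day 7 (adjusted p = 0.0294), which are 4.81-, 4.54- and 3.52-fold differences. Cd44 and Sele were the members called at all 3 times. Its day 3 call held in all 9 alternatives and all 14 fits without 1 sample, and it was 1.67 (adjusted p = 0.0282) without day 3 replicates 1 and 2.

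The highest Cd44 values, in day 1 replicate 1 and day 3 replicate 1, were in the samples with the highest neutrophil and monocyte sums, while day 3 replicate 4 combined 96.2 CPM of Cd44 with a sum of 125 CPM. Its day 1 call was lost without day 1 replicate 1 (1.76, adjusted p = 0.275). Its day 7 call was lost without healthy replicate 1, 2 or 3 (adjusted p = 0.0889, 0.0509 and 0.0641) or day 7 replicate 2, 3 or 4 (0.0924, 0.0682 and 0.055). At day 7 the stellate cell and fibroblast list, with all 12 genes detected at day 7, summed to 500.4, 7590.1, 1609 and 2789.9 CPM in replicates 1 to 4, against 171 to 305 CPM in healthy samples. On the CPM scale replicate 1 also had the lowest Cd44 of that day. In TPM Cd44 read 22.0, 22.9, 21.2 and 20.6 in replicates 1 to 4, with the lowest value in replicate 4. The part of these cells in the Cd44 result was not tested.

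CD47 was among the most abundant members and was lower at day 3 and day 7, without passing the test. Cd47 read 1160.0, 1038, 1037 and 979.6 CPM in healthy samples, 1252 and 1168 CPM at day 1, 849, 689, 699 and 413 CPM at day 3, and 969, 392, 439 and 481 CPM at day 7. On the CPM scale all day 3 and day 7 samples lay below all healthy samples, and both day 1 samples lay above them. In TPM the day 1 samples (368.3 and 376.7 TPM) lay inside the healthy range of 359.5 to 407.6 TPM, and day 7 replicate 1 (419.8 TPM) lay above it. The log2 fold changes were 0.20 ± 0.34 at day 1 (adjusted p = 0.852), -0.67 ± 0.28 at day 3 (adjusted p = 0.18) and -0.89 ± 0.28 at day 7 (adjusted p = 0.0997). In edgeR the day 3 and day 7 comparisons of Cd47 with healthy passed only without day 7 replicate 1. Without it the day 7 difference was -1.28 (adjusted p = 0.00491), that at day 3 was -0.81 (adjusted p = 0.0201), and that from day 1 to day 7 was -1.44 (adjusted p = 0.00387) against -1.09 ± 0.33 (adjusted p = 0.063) with it. DESeq2 and limma called the day 7 difference with all samples (-0.84, adjusted p = 0.0471, and -1.13, adjusted p = 0.000943). Both called more of all genes there than edgeR did (2721 and 7047 against 846). With all samples limma also called the day 3 difference from healthy (-0.52, adjusted p = 0.0491), where it called 7265 of all genes against 1915 in edgeR.

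Aoc3 was close to the limit of detection. It had 9 to 36 counts per sample in healthy, 15 and 6 at day 1, 17 to 50 in the day 3 samples and 3 to 58 in the day 7 samples, which is 0.0312 to 0.659 CPM over all samples. Its groups overlapped in each comparison with healthy and it passed in none (adjusted p = 0.777, 0.486 and 0.664 at day 1, 3 and 7). An antisense gene at its locus, Gm28156, whose exons do not overlap those of Aoc3, had up to 120% of its counts in a sample.

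Compared per length, the 9 members spanned more than 3 orders of magnitude in healthy LSECs. Icam2 (405 ± 31.5 TPM, SD, n = 4) and Cd47 (379.7 ± 20.8) led with overlapping ranges, followed by Icam1 (201 ± 36.6), Mcam (94.1 ± 23.2) and Vcam1 (43.0 ± 7.08), each apart from its neighbours. Sele (13.98 ± 4.73), Selp (10.4 ± 2.57) and Cd44 (8.55 ± 3.58) overlapped, and Aoc3 was at 0.102 ± 0.0562 TPM. At day 1 Mcam (225 ± 1.33 TPM, n = 2) stood above Icam1 (179 ± 13.99) and Selp (85.4 ± 10.8) had overtaken Vcam1 (63.1 ± 26.8), although the ranges of Selp and Vcam1 overlapped. At day 3 Icam1 (358 ± 178 TPM, n = 4) had the highest mean and Sele (88.2 ± 18.4) exceeded Vcam1 (72.9 ± 9.59), with overlap in each case, and at day 7 Icam1 (221 ± 109) still led over Icam2 (182 ± 110.2) and Cd47 (180.1 ± 160.4) with overlap. With the longest transcript as the length instead of all exons, Icam1 stood above Mcam, Vcam1 above Selp and Cd44 above Sele at day 1, and Vcam1 stood above Mcam at day 3 and day 7. Vcam1 then also stood above Sele at day 3 without overlap, at 117.5 to 152.1 against 53.4 to 86.7 TPM. In healthy samples, that length made Mcam (68.6 to 116.5 TPM) and Vcam1 (62.9 to 94.3 TPM) overlap. It also set Icam2 (459 to 543 TPM) apart from Cd47 (357 to 399 TPM).

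**Figure D3:**
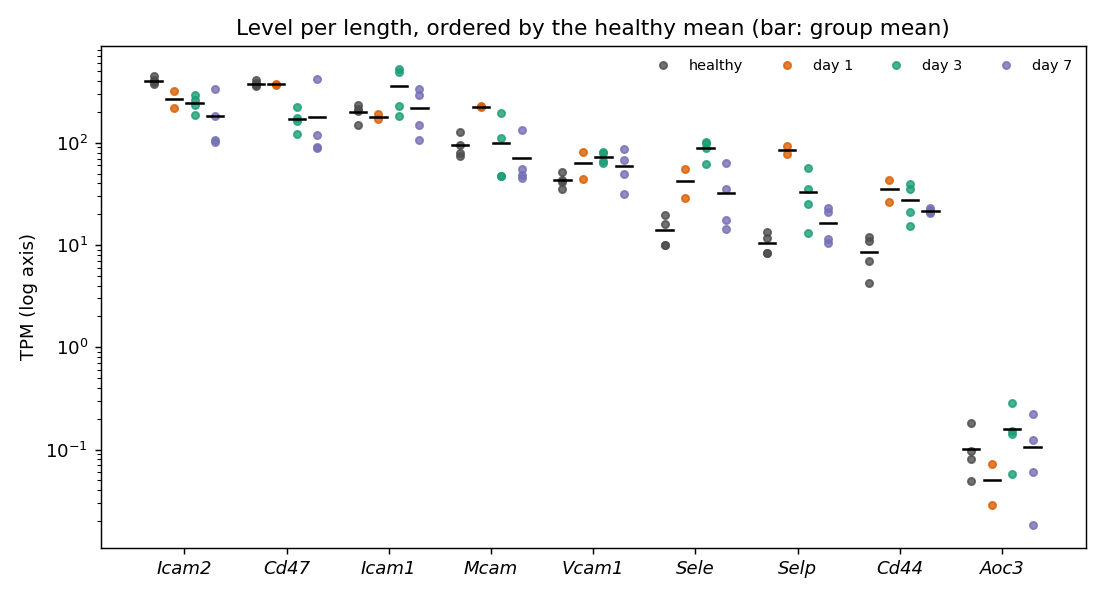
Level per length (TPM, log axis) of each member in every sample, ordered by the healthy mean (points: samples; bars: group means, n = 4, 2, 4 and 4). Icam2 and Cd47 lead in healthy samples at 405 and 379.7 TPM, Sele, Selp and Cd44 lie between 4.29 and 19.7 TPM there, and Aoc3 lies at or below 0.287 TPM in every sample.

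The genes whose log2 CPM followed each member most closely over the 14 samples are given as a description, since samples of a group share the same differences between groups. For Sele they were Dctd (Pearson's r = 0.897), Kcne3 (0.888) and Tnf (0.884), and for Selp the pseudogene Glns-ps1 (0.955), Ackr3 (0.950), a scavenging receptor for CXCL12, and Nsf (0.921). Icam1 was followed by its neighbour Icam5 (0.892), Ripk2 (0.888) and Kbtbd6 (0.880), and Vcam1 by Gm9888 (0.895), Arl5c (0.867) and Osbpl8 (0.858). For Mcam they were Msn (0.930), which encodes moesin, Tmem181a (0.928) and Wdr1 (0.928). Cd44 had the closest followers, Basp1 (0.982), Tnfrsf11a (0.980) and Cxcl14 (0.975), and Cd47 had Ginm1 (0.976), Chmp2b (0.968) and Ddx47 (0.968). For Icam2 Alg14 (0.949) and Gm6505 (0.930) are given, and for the sparse Aoc3 they were Gpat2 (0.869), Hspg2 (0.846) and Fam217b (0.843).

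**Figure D4:**
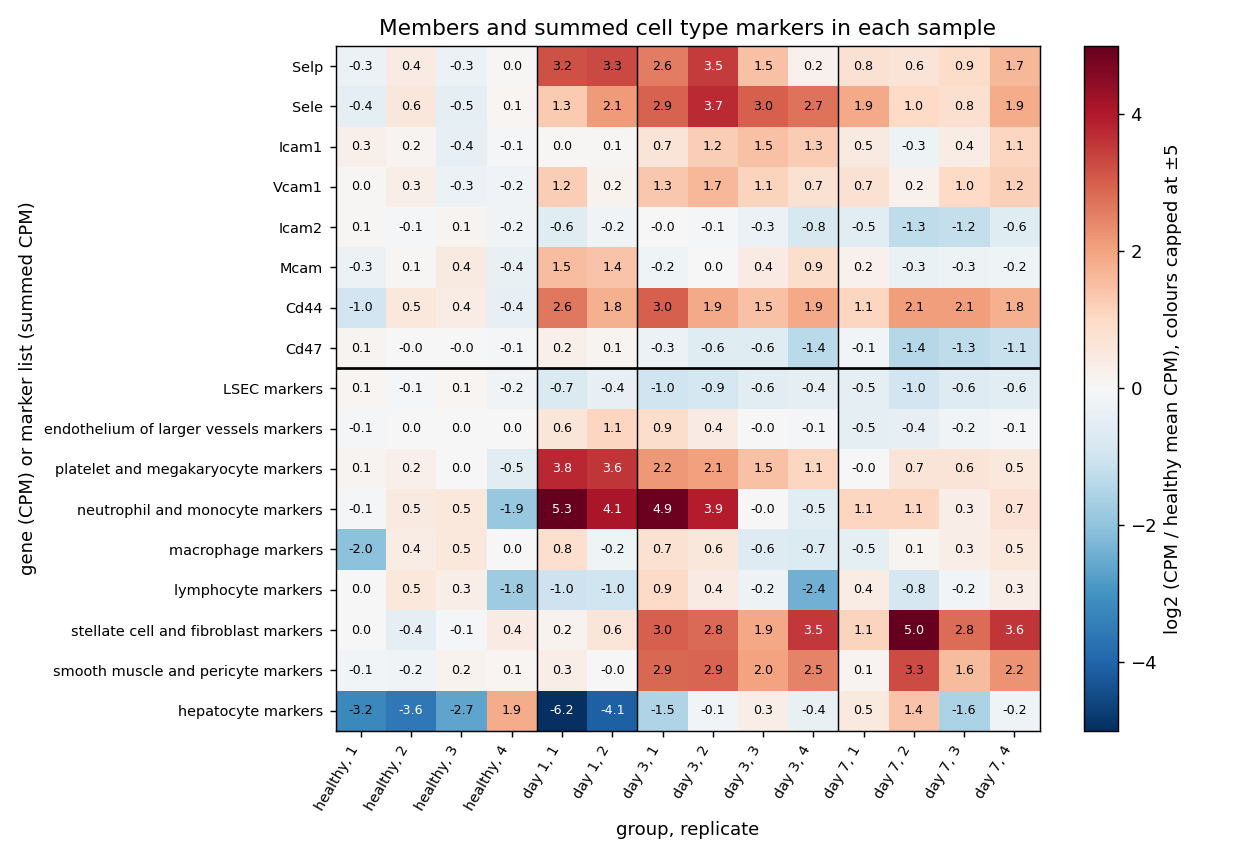
Log2 of each sample's CPM over the healthy mean for 8 members (Aoc3 left out as too sparse) and for summed markers of 9 cell types (columns: samples by group and replicate). Selp and the neutrophil and monocyte sum are both high in the day 1 samples and in day 3 replicates 1 and 2, while Sele is also above every healthy sample in day 3 replicates 3 and 4, where that sum is at the healthy level. The part of those cells in the values of either gene was not tested.

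Of the other adhesion and transmigration genes of the vessel wall, 23 of 24 were in the table and tested. At day 1, 2 rose and none fell. Bcam, a laminin-binding adhesion molecule, averaged 249 ± 75.7 CPM (SD, n = 2) against 34.7 ± 7.41 (n = 4) in healthy samples (log2 fold change 2.84, adjusted p = 0.000206), and Cdh5, the VE-cadherin of endothelial junctions, averaged 604 ± 19.7 against 289 ± 47.3 CPM (1.06, adjusted p = 0.0137). Like those of Mcam, their day 3 and day 7 values overlapped the healthy range. At day 3, 4 rose and 2 fell, and at day 7, 1 rose and 1 fell. Alcam, a homophilic adhesion molecule and ligand of CD6, went from 7.34 ± 1.12 CPM in healthy samples to 41.3 ± 11.7 at day 3 (2.49, adjusted p = 0.00496) and 63.4 ± 41.9 at day 7 (3.11, adjusted p = 0.00481), and the junctional Esam fell at day 7 from 889.5 ± 57.6 to 474 ± 127 CPM (-0.91, adjusted p = 0.0261). The median log2 fold change of the list was 0.49, 0.29 and -0.19 at day 1, 3 and 7, against -0.03, 0.18 and 0.02 for all genes tested. Of all genes, 2.42, 4.62 and 2.19% were called higher and 1.64, 2.58 and 0.992% lower at these times. The counts depended on the samples, with 1 to 6 genes called at each time when 1 sample was left out, and 7, 3 and 7 without day 3 replicates 1 and 2.

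All 17 counter-receptors and ligands of the members were tested, and 4, 2 and 3 of them rose at day 1, 3 and 7, with none lower and medians of 1.26, 1.07 and 0.47. Among all genes tested, 2.42, 4.62 and 2.19% were higher at these times, with medians of -0.03, 0.18 and 0.02. Thbs1, thrombospondin-1, a ligand of CD47, went from 4.64 ± 1.75 CPM in healthy samples to 115 ± 69.9 on day 1 (log2 fold change 4.63, adjusted p = 0.000931), 47.4 ± 19.0 at day 3 (3.35, adjusted p = 0.00423) and 33.2 ± 21.7 at day 7 (2.84, adjusted p = 0.0148). Itgb2, the β chain of LFA-1 and Mac-1 and a leukocyte gene, rose at day 1 (1.99, adjusted p = 0.0453) and day 7 (1.96, adjusted p = 0.0356), with 1.51 at day 3 (adjusted p = 0.0583). Itgax, an α chain that pairs with it, rose at day 7 (2.93, adjusted p = 0.0201), and Itgb1, the widely used β1 chain, at day 1 (0.84, adjusted p = 0.0229). Leaving out 1 sample gave 1 to 5, 1 to 4 and 0 to 5 calls at the 3 times, and leaving out day 3 replicates 1 and 2 gave 6, 1 and 5.

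All 11 hyaluronan genes, the ligand side of Cd44, were tested. At day 1, 1 rose and 1 fell, at day 3, 3 rose and 1 fell, and at day 7, 2 rose and 1 fell, with medians of 0.17, 0.67 and 1.04. The shares called over all genes were 4.06, 7.19 and 3.18%, with medians of -0.03, 0.18 and 0.02. Vcan, versican, which binds hyaluronan and is also a monocyte gene on the neutrophil and monocyte list, went from 0.153 ± 0.0290 CPM to 41.5 ± 24.1 at day 1 (log2 fold change 8.07, adjusted p = 0.000338), 9.37 ± 8.07 at day 3 (5.92, adjusted p = 0.00192) and 7.28 ± 5.67 at day 7 (5.56, adjusted p = 0.00481). Hyal2, a hyaluronidase, fell from 117 ± 12.7 CPM to 53.7 ± 4.92 at day 3 (-1.12, adjusted p = 0.00454) and 54.4 ± 14.4 at day 7 (-1.10, adjusted p = 0.00961), without overlap. Tnfaip6, which crosslinks hyaluronan, rose at day 3 (2.45, adjusted p = 0.0234) and day 7 (2.42, adjusted p = 0.0407), and Hmmr, a hyaluronan receptor also tied to cell division, at day 3 (1.81, adjusted p = 0.0288). Without day 3 replicates 1 and 2 the calls were 2, 4 and 4.

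The 14 genes that build selectin ligands were all tested, with 2, 2 and 1 higher and 0, 3 and 1 lower at day 1, 3 and 7, and medians of 0.10, -0.03 and -0.15. For all genes the medians were -0.03, 0.18 and 0.02, with 2.42, 4.62 and 2.19% higher and 1.64, 2.58 and 0.992% lower. Gcnt1, which starts the branch that carries selectin ligands, went from 1.86 ± 0.695 CPM to 8.91 ± 4.22 at day 1 (log2 fold change 2.26, adjusted p = 0.0121) and stayed higher at day 3 (1.94, adjusted p = 0.0118) and day 7 (1.88, adjusted p = 0.024). St3gal4, a sialyltransferase, fell from 433 ± 57.0 CPM to 221 ± 14.4 at day 3 (-0.97, adjusted p = 0.00695) and 241 ± 53.7 at day 7 (-0.84, adjusted p = 0.0232). The galactosyltransferase B4galt5 rose at day 1 (1.41, adjusted p = 0.0143), and the tyrosine sulfotransferase Tpst2 fell at day 3 (-0.96, adjusted p = 0.0125). Leaving out 1 sample gave 0 to 3, 3 to 5 and 0 to 4 calls.

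Of 15 cytoskeletal anchors and shedding proteases of the members, all tested, 5, 3 and 2 rose at day 1, 3 and 7 and none fell, with medians of 0.39, 0.17 and 0.06. All genes had medians of -0.03, 0.18 and 0.02, so the list's day 3 and day 7 medians were near those. Higher calls made up 2.42, 4.62 and 2.19% of all genes. Flna, filamin A, which anchors ICAM-1 to actin, rose at all 3 times (log2 fold change 1.71, 1.79 and 1.18, adjusted p = 0.0114, 0.00433 and 0.0445). Actn1, an α-actinin, rose at day 1 from 13.5 ± 3.21 to 87.0 ± 28.8 CPM (2.68, adjusted p = 0.000865). Adam8, a protease of leukocytes that sheds adhesion molecules, went from 4.07 ± 2.26 CPM to 87.0 ± 57.2 at day 1 (4.42, adjusted p = 0.0012), 66.3 ± 32.1 at day 3 (4.03, adjusted p = 0.002) and 30.3 ± 12.4 at day 7 (2.89, adjusted p = 0.0136). Adam15, a protease of endothelium, rose at day 1 (1.48, adjusted p = 0.00163) and day 3 (0.79, adjusted p = 0.0196). Leaving out 1 sample gave 2 to 5, 2 to 4 and 0 to 3 calls.

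Some member counts can include reads of overlapping genes, because the library kit does not mark strand. The opposite-strand genes in Selp were the most abundant of these, at 2.14 to 17.5% (Gm16587) and 1.17 to 10.0% (Gm16548) of the Selp level, against at most 1.37% in Icam1 (Gm47079), 3.99% in Mcam (Gm10687) and 4.19% in Vcam1 (Gm43109). No annotated gene overlapped Sele, Icam2 or Cd47.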

How the data were processed

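Read quality was checked and reads were trimmed by the authors (AfterQC, FastQC). Alignment to GRCm38 used STAR and assembly StringTie, per the labels and the study's methods. The authors deposited unnormalised whole-number counts per Ensembl gene for the 14 samples. The annotation release and any use of strand in counting are not given in the sources used here. Symbols, positions and exon lengths came from GENCODE vM21, which held 54495 of 54524 genes.

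Genes with too few counts were removed by group (filterByExpr, minimum count 10, minimum total 15). Counts were scaled by TMM and tested with edgeR 4.0.16 (R 4.3.3; quasi-likelihood test, 1 model of 4 group means) in 6 comparisons, with Benjamini-Hochberg adjustment over 26626 genes and a threshold of 0.05. SE is the log2 fold change over the root of F. CPM used the TMM-scaled library size, and TPM the summed exon length. A gene was taken as detected from 3 counts in a sample, which covers counting error only. Alternatives were other scalings and filters, DESeq2 1.42.0, limma 3.58.1 (voom, sample weights), other sample sets, and a replicate block. Tests were checked on simulated data. The members, related genes and marker lists were chosen with earlier results of these data known. Text names the members, the 3 genes most like each, and up to 4 called genes per list by smallest p. Icam5, S100a9, S100a8, Itgb3, Pf4, Itga2b, Rspo3, Plvap and Ly6a were added for a neighbour or a marker list. Some items that these rules name are not reported here.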

Additional observations from a re-analysis of the deposited data

Results flagged for a closer look

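The day 7 samples of Cd47 and Mcam each held a sample far from the other 3, and in both it was replicate 1, at 969 CPM of Cd47 and 164 CPM of Mcam. These are 2 of 27 checks of single samples, and chance marks about 1 in 20 such groups. The same sample had the lowest stellate cell and fibroblast sum of day 7, 500.4 CPM, and its part in these values was not tested.

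Among injured groups, a direct test of the difference passed for Sele from day 3 to day 7 (log2 fold change -1.67), for Selp from day 1 to day 7 (-2.19) and for Mcam from day 1 to day 7 (-1.61).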

How the results depend on the processing

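Of the 54 member comparisons, 28 kept their call in every analysis and 26 changed it in at least 1. Of the log2 fold changes under the alternatives, 1145 kept their side of the threshold, 36 passed only there and 55 no longer passed, and no called change turned its direction. Some changes that passed in neither analysis did turn. Selp from day 3 to day 7 was -1.33 with all samples and 0.15 without day 3 replicates 1 and 2. The causes were not tested.

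With the replicate number as a block, 2 members were called at day 1 (Mcam and Selp), 1 at day 7 (Sele) and 1 from day 1 to day 7 (Mcam), against 4, 2 and 2 without it. The block also lowered the calls over all 26626 genes, to 594, 435 and 1084 from 1080, 846 and 2142. Same-numbered samples did not deviate together (correlations -0.232 to 0.0962), so the numbers were not read as pairs. At day 7 against healthy, 1 member was called with no filter on low counts, 5 with DESeq2, 6 with limma and 5 in a fit of those groups alone. The calls over all genes moved too. They were 596 of 44622, 2721 of 26626, 7047 of 26626 and 3156 of 21591 in these fits, against 846 of 26626 in edgeR. From day 1 to day 3, 1 was called with at least 10 counts in every sample, 3 with DESeq2, 3 with limma and 2 without day 3 replicates 1 and 2, an alternative chosen after seeing the data, against 0 in edgeR. Over all genes these fits called 835 of 16311, 2355 and 3344 of 26626 and 1923 of 24856, against 676 of 26626 in edgeR. From day 3 to day 7, 0 were called with no filter, in a fit of those groups alone and without day 3 replicates 1 and 2, and 4 with limma, and at day 3 against healthy 3 were called without those replicates. Of all genes, those fits from day 3 to day 7 called 157 of 44622, 1 of 22169, 638 of 24856 and 6002 of 26626. The last fit, at day 3 against healthy, called 2417 of 24856. At day 7 against healthy, leaving out 1 healthy, day 3 or day 7 sample gave 193 to 2166 calls over all genes. Leaving out 1 sample gave 0 to 4 members at day 1, 2 to 6 at day 3, 0 to 4 at day 7, 0 to 1 from day 1 to day 3, 0 to 2 from day 3 to day 7 and 0 to 3 from day 1 to day 7, the last without day 3 replicate 4, where Cd47 also passed (adjusted p = 0.041); without day 1 replicate 1 or 2, that group is 1 sample, taken to vary like the others.

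Day 1 has 2 samples. Depth limits only Aoc3.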
